A study of Mus musculus with 12 samples.

Results

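The MHC class I presentation genes are 10 genes taken by symbol from the 23479 symbols of a raw read count table: H2-K1, H2-D1, H2-T23, B2m, Tap1, Tap2, Tapbp, Nlrc5, Psmb8 and Psmb9. Each symbol had 1 row, and all 10 were among the 15082 genes with enough counts to be tested. Their RNA was measured in bulk in 12 mouse prostate tumours, 3 in each of 4 groups: Lupron plus anti-CSF1, anti-CSF1, Lupron and control IgG. Every tumour grew from 100000 PTE-82 cells, a TMPRSS2-ERG+ prostate cancer line, placed in the prostate of C57BL/6J mice in 40 µl of PBS and Matrigel. On day 4, mice of the Lupron groups had 0.6 mg of Lupron, a drug that shuts down testosterone through the pituitary. The antibody against CSF1, a growth factor that macrophages depend on, was given on days 9 and 14, and tumours were taken on day 17 after perfusion with PBS. The sources used here do not give the age of the mice, the antibody dose or whether mice given Lupron alone also had control IgG. All tumours came from 1 cell line, and nothing in the labels says whether the tumours of a group were raised at separate times, so p-values measure the spread between these tumours, which may be technical in part.

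MHC class I molecules stand on almost every nucleated cell and show peptides from inside the cell to CD8 T cells, while natural killer (NK) cells respond when they are missing. Proteasomes cut proteins into peptides, a transporter carries the peptides into the endoplasmic reticulum, and chaperones load them onto a heavy chain paired with beta-2 microglobulin. Interferon gamma raises most genes of the pathway, in part through the factor IRF1 and the class I transactivator NLRC5. MHC class II molecules are carried mainly by macrophages, dendritic cells and B cells and depend on another transactivator, CIITA.

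Of the 10 genes, 8 lie on mouse chromosome 17, in or beside the MHC, with B2m on chromosome 2 and Nlrc5 on chromosome 8 (build GRCm38). NLRC5 and the factors that work with it act at short elements before the start of class I genes, so the RefSeq promoter windows of build GRCm38.p6, from 250 bases before to 50 bases after the start, were searched for 3 short motifs on both strands. The motifs were an interferon-responsive core (AANNGAAA, in 23.9% of the 32851 windows of all genes), a cAMP-response half-site (TGACG, in 20.8%) and the CCAAT box (CCAAT, in 37.4%). A window was at hand for 8 of the 10 genes, all but Tap2 and Nlrc5. The first window listed for a gene was used, while the 32851 windows can hold several of a gene. That of H2-K1 lies wholly within the gene's RefSeq bounds (chr17:33996012-34000619), so its start is not the outermost one. The windows of the heavy chain genes H2-K1 (chr17:34000298-34000597, minus strand) and H2-D1 (chr17:35262844-35263143, plus strand) and of their partner B2m (chr2:122147437-122147736, plus strand) are shown because they hold the most kinds of motif among the 8. They run 5′ to 3′ on the gene's strand, and capitals mark every match, with a match on the other strand read in reverse complement.

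H2-K1: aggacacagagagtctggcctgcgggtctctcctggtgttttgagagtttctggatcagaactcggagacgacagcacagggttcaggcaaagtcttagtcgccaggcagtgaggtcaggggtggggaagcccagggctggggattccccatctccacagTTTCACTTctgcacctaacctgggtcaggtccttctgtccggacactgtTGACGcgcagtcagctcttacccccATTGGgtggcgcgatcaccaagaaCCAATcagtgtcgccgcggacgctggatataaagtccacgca

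H2-D1: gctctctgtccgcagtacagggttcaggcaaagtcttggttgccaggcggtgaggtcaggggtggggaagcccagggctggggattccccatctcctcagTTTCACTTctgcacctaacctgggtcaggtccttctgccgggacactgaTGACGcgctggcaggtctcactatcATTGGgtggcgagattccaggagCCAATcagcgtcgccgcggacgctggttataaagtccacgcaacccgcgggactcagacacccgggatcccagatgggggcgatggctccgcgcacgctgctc

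B2m: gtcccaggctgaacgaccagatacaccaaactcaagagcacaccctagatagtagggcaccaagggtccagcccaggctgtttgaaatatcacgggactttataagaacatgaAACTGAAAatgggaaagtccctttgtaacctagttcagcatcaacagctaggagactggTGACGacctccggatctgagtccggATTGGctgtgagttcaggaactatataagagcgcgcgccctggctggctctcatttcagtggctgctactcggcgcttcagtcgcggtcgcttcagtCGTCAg

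The windows of H2-K1, H2-D1 and B2m held all 3 motifs, as did 522 of the 32851 windows (1.59%). No printed match overlapped another. From start to start, the interferon-responsive core and the half-site stood 49 bases apart and the half-site and the reversed CCAAT box 25 bases, the same in H2-K1 and H2-D1. In B2m the core and half-site stood 59 bases apart and the half-site and reversed CCAAT box 25 bases, as in the heavy chain genes. That last arrangement, TGACG and then ATTGG after 20 other bases, was found in 31 windows (0.0944%) of 27 symbols, and the class I heavy chain gene H2-M3 was another of them. The window of H2-T23 had 2 matches to the core and a CCAAT box, and that of Tapbp had 2 CCAAT boxes. Tap1 (chr17:34187306-34187605, plus strand) and Psmb9 (chr17:34187281-34187580, minus strand) start head to head, and their overlapping windows share 1 half-site and 1 CCAAT box. Psmb8 had none of the 3 motifs in its window. A match describes letters in a window and is not a measured binding site.

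The tumours carried the pathway at quite different levels from gene to gene. Levels are given as CPM, a gene's reads relative to a library total scaled with TMM factors, and divided by exon length for comparison between genes. Per kilobase of exon, B2m had the highest mean over the 12 tumours (4925 CPM per kb), then H2-K1 (604), Psmb8 (147), H2-D1 (72.5), H2-T23 (68.3), Tapbp (52.7), Psmb9 (25.3), Tap1 (24.8), Tap2 (19.2) and Nlrc5 (3.76). Counts behind the lowest of these, Nlrc5, still ran from 389 to 1386 reads per tumour. H2-K1, H2-D1 and other heavy chain genes are similar in sequence. How reads that match more than 1 of them were counted is not given, so their levels and the split between them are uncertain. H2-Q6 and H2-T22 had 0 reads in every tumour. By the gene bounds of GENCODE, which reach past the RefSeq starts of Tap1 and Psmb9, Tap1 overlaps Psmb9, B2m overlaps Patl2, Tapbp overlaps Zbtb22, and H2-T23, Tap2 and Psmb8 overlap antisense genes. The sources used here do not say whether counting used strand, so reads from the stretch that such a pair shares cannot be told apart.

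Library totals ran from 20584363 to 29965355 counts and RNA integrity numbers from 8.2 to 9.8. IgG replicate 3 stood apart. It had the lowest level of 12 tumours for 9 of the 10 genes, against 29.4% of all genes tested, and the exception, Tapbp, was lowest in Lupron replicate 2. Against the mean of the other IgG tumours it held 20.8% of the Psmb8 level, 30.8% of Psmb9, 36.0% of Tap1 and 72.2% of H2-T23, with the other 6 genes from 45.2% to 53.5%. In the same tumour the summed level of 7 smooth muscle markers was 11542 CPM, against 377 to 2700 in the other 11, and that of 7 luminal epithelial markers 2623 CPM, against 167 to 828. Its 6 prostate secretory markers summed to 57315 CPM, against 93.1 to 18763. Its 7 proliferation markers summed to 78.5 CPM, against 880 to 2011, its 7 T cell markers to 10.4 CPM, against 14.7 to 72.7, and its 6 NK cell markers to 4.63 CPM, against 26.8 to 137. The part of these differences in the low class I values was not tested. Estimates of the treatment effects that rest on IgG are therefore given with and without that tumour. Lupron replicate 2 also stood apart, with 6 seminal vesicle markers summing to 368016 CPM, against 248 to 104955 CPM in the other 11 tumours, and its part in the class I values was not tested.

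Averaged over Lupron, anti-CSF1 left no class I presentation gene past the test. In the quasi-likelihood test of edgeR, with p-values adjusted over all genes after Benjamini and Hochberg, 0 of the 10 were called at an adjusted p under 0.05, where 282 of 15082 genes (1.87%) were called, 12 higher and 270 lower. At an unadjusted p under 0.05 the count was 0 of 10, where 19.0% of all genes passed, and DESeq2 also called 0 of 10. Log2 fold changes ran from −0.38 for Nlrc5 to 0.33 for Psmb8, with a median of 0.14 over the 10 and 0.021 over all genes. The 95% intervals of the 10 genes lay between −0.90 and 1.01 in all, that is between 0.535-fold and 2.02-fold. Without IgG replicate 3 the median was −0.023.

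H2-K1 encodes a classical heavy chain that presents peptides to CD8 T cells. It had 828, 1009 and 1012 CPM in tumours with Lupron plus anti-CSF1, 1353, 729 and 1064 CPM with anti-CSF1, 1309, 881 and 1247 CPM with Lupron and 1117, 921 and 524 CPM with IgG. The lowest and the highest of the 12 were an IgG and an anti-CSF1 tumour, and the ranges of the 4 groups overlapped. Its log2 fold change with the antibody was 0.013 ± 0.23 (standard error; edgeR adjusted p = 0.981, 95% interval −0.50 to 0.52). H2-D1, the other classical heavy chain, had 141, 162 and 150 CPM with Lupron plus anti-CSF1, 223, 120 and 164 CPM with anti-CSF1, 192, 132 and 186 CPM with Lupron and 165, 128 and 67.1 CPM with IgG. It was again highest in anti-CSF1 replicate 1 and lowest in IgG replicate 3, and the antibody effect was 0.16 ± 0.23 (edgeR adjusted p = 0.702). These effects, without IgG replicate 3, were −0.11 ± 0.20 for H2-K1 and 0.017 ± 0.18 for H2-D1. H2-T23 encodes Qa-1, a nonclassical heavy chain read by CD94 and NKG2 receptors of NK cells. It had 88.6, 111 and 98.4 CPM with Lupron plus anti-CSF1, 116, 101 and 85.1 CPM with anti-CSF1, 107, 115 and 130 CPM with Lupron and 92.9, 94.4 and 67.6 CPM with IgG. The Lupron tumours all lay above the IgG tumours for H2-T23, which had the narrowest range of the 10 genes, 1.92-fold from lowest to highest.

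B2m encodes beta-2 microglobulin, the light chain shared by class I molecules. It had 3877, 4299 and 4677 CPM in tumours with Lupron plus anti-CSF1, 5569, 3362 and 3747 CPM with anti-CSF1, 4322, 4493 and 4878 CPM with Lupron and 3649, 5507 and 2448 CPM with IgG. The IgG group alone held both the lowest value and the second highest, and no 2 groups separated. The antibody effect was 0.018 ± 0.23 (edgeR adjusted p = 0.974, 95% interval −0.50 to 0.53), and −0.10 ± 0.21 without IgG replicate 3.

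**Figure D1:**
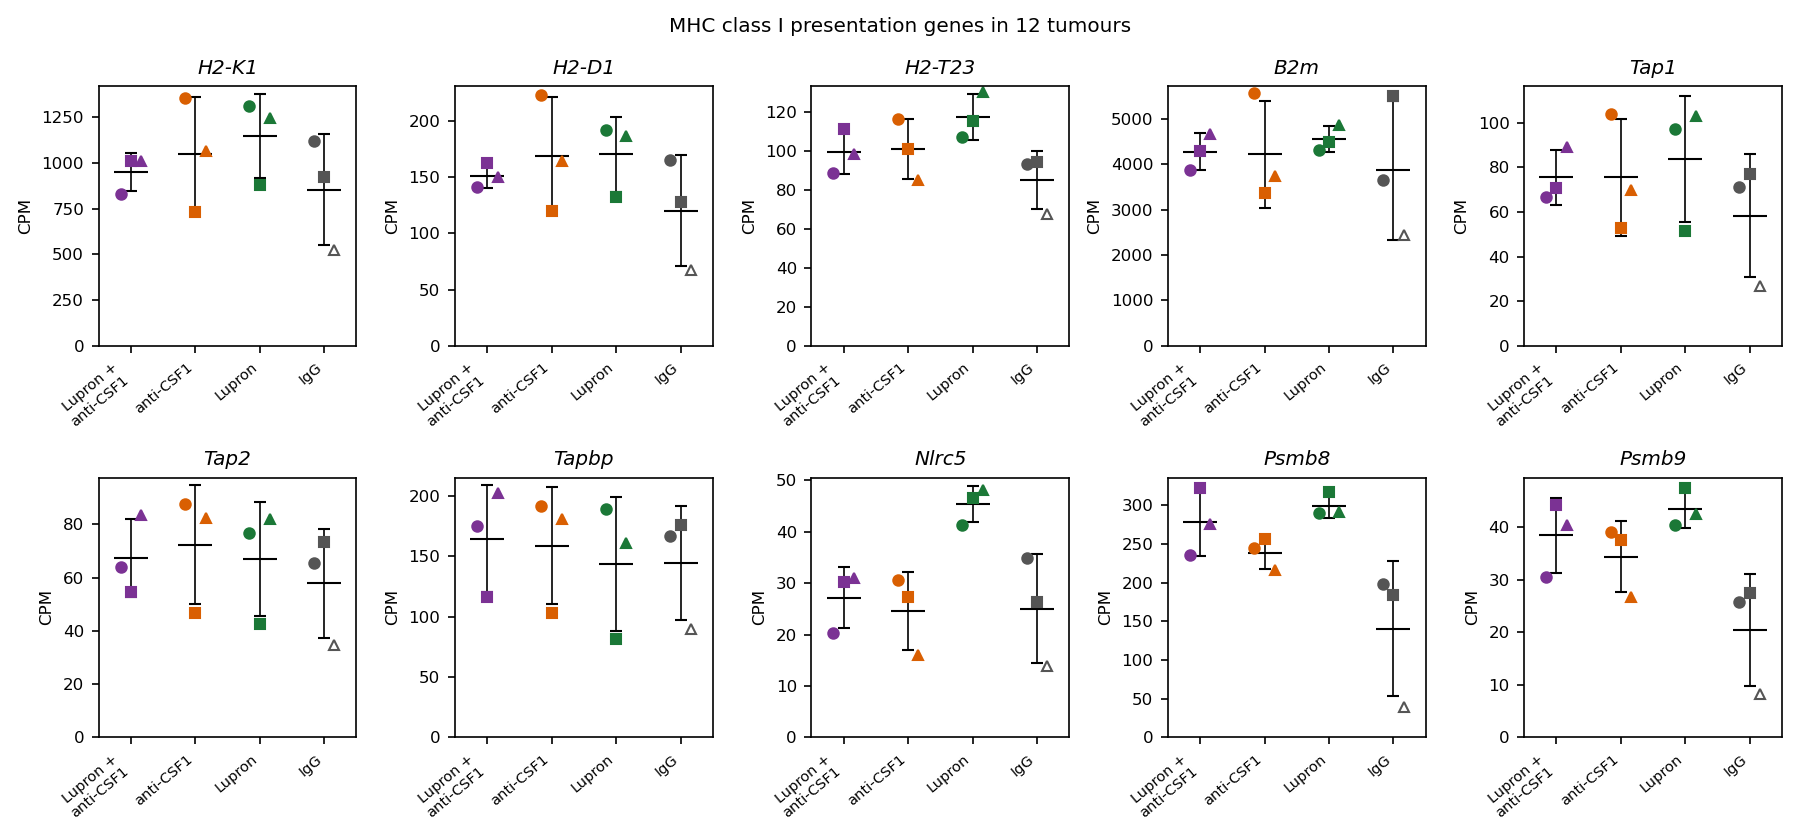
Level of each of the 10 class I presentation genes in CPM (y axes, linear, from 0) by treatment group (x axes). Points are tumours (circle, square and triangle for replicates 1, 2 and 3; the open triangle is IgG replicate 3), bars the mean and SD of 3 tumours. Nlrc5 sat between 41.4 and 48.1 CPM in the Lupron tumours, above all others, and Psmb8 in IgG replicate 3 was 39.7 CPM.

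The peptide transporter and its bridge to the heavy chain varied more between tumours than between groups. Tap1 and Tap2 encode the paired subunits of the transporter that brings peptides into the endoplasmic reticulum. Tap1 had 66.5, 70.5 and 89.3 CPM with Lupron plus anti-CSF1, 104, 52.6 and 69.7 CPM with anti-CSF1, 97.3, 51.5 and 103 CPM with Lupron and 71.3, 76.8 and 26.7 CPM with IgG. Tap2 had 63.9, 54.7 and 83.6 CPM with Lupron plus anti-CSF1, 87.8, 46.7 and 82.3 CPM with anti-CSF1, 76.9, 42.5 and 81.9 CPM with Lupron and 65.3, 73.5 and 34.6 CPM with IgG. Replicate 2 was the lowest tumour of the anti-CSF1 and the Lupron groups for both genes. Tapbp encodes tapasin, which holds the heavy chain at the transporter. It had 175, 116 and 203 CPM with Lupron plus anti-CSF1, 192, 103 and 181 CPM with anti-CSF1, 189, 81.2 and 161 CPM with Lupron and 167, 176 and 90.0 CPM with IgG. Antibody effects were 0.11 ± 0.28 for Tap1, 0.16 ± 0.25 for Tap2 and 0.17 ± 0.27 for Tapbp (edgeR adjusted p = 0.843, 0.720 and 0.738), and −0.063 ± 0.22, 0.033 ± 0.22 and 0.042 ± 0.25 without IgG replicate 3. Groups overlapped in every comparison of these 3 genes.

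Nlrc5, the transactivator, had the one negative estimate with the antibody. Nlrc5 had 20.3, 30.2 and 31.0 CPM with Lupron plus anti-CSF1, 30.6, 27.3 and 16.1 CPM with anti-CSF1, 41.4, 46.5 and 48.1 CPM with Lupron and 35.0, 26.3 and 13.8 CPM with IgG. All 3 Lupron tumours stood above the other 9, whose groups overlapped one another. The share of all genes with that pattern was not counted. The averaged antibody effect was −0.38 ± 0.24 (edgeR adjusted p = 0.390), and −0.53 ± 0.19 without IgG replicate 3 (edgeR adjusted p = 0.202). For Lupron plus anti-CSF1 against Lupron it was −0.74 ± 0.34 (edgeR adjusted p = 1.00). In that comparison 6.93% of all genes were lower without overlap between the groups, and among the 10 genes Nlrc5 was the 1 that was. By edgeR 0 of the 10 and 0 of all genes (0%) were called, DESeq2 called 236 genes and 0 of the 10, and at an unadjusted p under 0.05 edgeR had 0 of the 10 and 4.26% of all genes.

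The immunoproteasome subunits Psmb8 and Psmb9 replace standard catalytic subunits when interferon is present and change which peptides are cut. Psmb8 had 236, 322 and 276 CPM with Lupron plus anti-CSF1, 245, 256 and 216 CPM with anti-CSF1, 290, 317 and 291 CPM with Lupron and 198, 184 and 39.7 CPM with IgG. Every treated tumour had more Psmb8 than every IgG tumour. How many of all genes had this separation was not counted. In single comparisons against IgG, 15.1% of all genes were higher without overlap for Lupron plus anti-CSF1. For Lupron alone and for the antibody alone it was 11.1% each. Psmb9 had 30.5, 44.3 and 40.5 CPM with Lupron plus anti-CSF1, 39.0, 37.5 and 26.7 CPM with anti-CSF1, 40.4, 47.5 and 42.5 CPM with Lupron and 25.8, 27.5 and 8.22 CPM with IgG. The lowest anti-CSF1 tumour lay below the highest IgG tumour for Psmb9, and the other treated groups did not overlap IgG. Antibody effects averaged over Lupron were 0.33 ± 0.31 for Psmb8 and 0.28 ± 0.26 for Psmb9 (edgeR adjusted p = 0.560 and 0.552), and 0.11 ± 0.13 and 0.094 ± 0.15 without IgG replicate 3.

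Against IgG with no tumour left out, Lupron had the most class I genes at an unadjusted p under 0.05 among the 3 treated groups. Over all genes that share was 16.4% with Lupron, 22.8% with anti-CSF1 and 26.0% with both. Lupron left no gene past the test. The comparison of Lupron with IgG called 0 of the 10 genes and 0 of all genes by edgeR (0%), and DESeq2 called 404 genes with 0 of the 10 among them. At an unadjusted p under 0.05, 16.4% of all genes passed (4.70% of all genes as higher), and of the 10 genes 4 passed, each higher: Psmb8 (log2 fold change 1.09 ± 0.44), Psmb9 (1.08 ± 0.37), Nlrc5 (0.86 ± 0.34) and H2-T23 (0.46 ± 0.19). Their adjusted p from edgeR were 0.287, 0.284, 0.284 and 0.289. The same 4 were higher without overlap between the groups, where 11.1% of all genes were. The median of the 10 was 0.48 and that of all genes −0.019. Leaving out IgG replicate 3 gave 0.65 ± 0.20, 0.70 ± 0.22, 0.56 ± 0.29 and 0.32 ± 0.19 for the 4 genes (edgeR adjusted p = 0.800 for each). The median of the 10 was then 0.20. In that fit Lupron and Lupron plus anti-CSF1 each had 2 of the 10 genes at an unadjusted p under 0.05 against IgG. Without Lupron replicate 2 or Lupron replicate 3, each had 1. Leaving out any other single tumour kept the count highest for Lupron. The share of all genes at that threshold was not counted in these fits, so the counts do not rank the treatments.

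Summed markers of other cells had unlike levels in the same tumours. For Lupron against IgG edgeR called 0 of 7 T cell and 0 of 6 NK cell markers, where 0 of all genes (0%) were called. The summed T cell markers ran from 46.8 to 72.7 CPM in Lupron tumours and from 10.4 to 43.0 CPM in IgG tumours. The NK cell markers ran from 26.8 to 80.9 CPM in Lupron tumours, against 4.63 to 34.6 CPM in IgG tumours, so that the NK ranges overlapped, and no marker of either list was at 0 in any tumour. Ifng, the interferon gamma gene made by these cells, had 1.45, 1.09 and 1.01 CPM with Lupron and 0.457, 0.543 and 0.178 CPM with IgG. These low levels rest on few reads, above all in the IgG tumours. The log2 fold change of Ifng was 1.59 ± 0.81 (edgeR adjusted p = 0.330), and 1.24 ± 0.92 without IgG replicate 3. Median log2 fold changes for Lupron against IgG were 1.14 for the T cell and 0.44 for the NK cell markers, and 0.69 and −0.0052 without IgG replicate 3. They were −1.76 for the luminal epithelial, −2.22 for the smooth muscle, 0.81 for the proliferation and 2.52 for the seminal vesicle markers, and −0.61, −0.80, 0.25 and 1.95 without that tumour. For the prostate secretory markers the median was −2.04, and −1.83 without IgG replicate 3. Fibroblast and endothelial markers had medians of −0.64 and −0.11, and of −1.07 and −0.38 without that tumour. Medians were 0.68 for the dendritic cell, 0.51 for the B cell, 0.11 for the neutrophil and −0.016 for the macrophage markers. Without IgG replicate 3 these were 0.33, 0.58, −0.15 and −0.35. Of these lists too, 0 genes were called by edgeR in that comparison. The part of these cells in the class I values was not tested. In bulk RNA, fewer cells of a type and less RNA per cell cannot be told apart.

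Averaged over the antibody, the effect of Lupron was positive for 10 of the 10 genes, where 47.7% of all genes had a positive estimate, and 0 of the 10 and 0 of all genes were called by edgeR (0%). DESeq2 called 12 genes and 0 of the 10. At an unadjusted p under 0.05, 1 of the 10 and 9.06% of all genes passed. That gene was Psmb9, at 0.62 ± 0.26 (edgeR adjusted p = 0.525), beside Psmb8 at 0.65 ± 0.31 and Nlrc5 at 0.50 ± 0.24. The 3 were, without IgG replicate 3, at 0.43 ± 0.15, 0.43 ± 0.13 and 0.35 ± 0.19. Tapbp was at 0.023 ± 0.27, and at −0.10 ± 0.25 without that tumour. Without IgG replicate 3, 8 of the 10 estimates were positive and the median was 0.058 in place of 0.19. Lupron plus anti-CSF1 against IgG gave 0.98 ± 0.44 for Psmb8 and 0.90 ± 0.37 for Psmb9 (edgeR adjusted p = 0.190 and 0.165), and 0.54 ± 0.20 and 0.53 ± 0.22 without IgG replicate 3. In that comparison 0 of the 10 and 1 of all genes (0.00663%) were called by edgeR, with 2 of the 10 and 26.0% of all genes at an unadjusted p under 0.05, and DESeq2 called 2094 genes and 0 of the 10. There Psmb8 and Psmb9 were the 2 of the 10 that were higher without overlap, where 15.1% of all genes were. Anti-CSF1 against IgG gave 0 of the 10 and 1 of all genes called by edgeR (0.00663%), 0 of the 10 and 22.8% at an unadjusted p under 0.05, and 1841 genes and 0 of the 10 called by DESeq2, with Psmb8 at 0.77 ± 0.44 (0.32 ± 0.20 without IgG replicate 3) as the 1 gene without overlap, where 11.1% of all genes were higher without overlap. By edgeR the interaction called 0 of the 10 and 0 of all genes (0%), with 0 of the 10 and 6.77% at an unadjusted p under 0.05, and DESeq2 called 188 genes and 0 of the 10. Its estimates were negative for 9 of the 10 genes, with a median of −0.55, where all genes had −0.022. Without IgG replicate 3 that median was −0.33. Lupron plus anti-CSF1 against anti-CSF1 also called 0 of the 10 and 0 of all genes (0%), with 0 of the 10 and 1.95% at an unadjusted p under 0.05 and 6 genes called by DESeq2, and the 10 estimates ran from −0.16 for H2-D1 to 0.21 for Psmb8. The 3 comparisons against IgG share its 3 tumours.

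Class II genes differed from class I genes in the same tumours. Of 7 class II presentation genes, 7 fell with the antibody, from −1.81 ± 0.27 for the transactivator Ciita to −2.52 ± 0.27 for the peptide exchanger subunit H2-DMb1 (edgeR adjusted p = 0.00959 and 0.00530). H2-Ab1, a class II beta chain, had 65.2, 81.5 and 101 CPM with Lupron plus anti-CSF1, 119, 40.9 and 66.5 CPM with anti-CSF1, 510, 567 and 518 CPM with Lupron and 310, 340 and 111 CPM with IgG. Macrophage markers fell alongside, 9 of 10 past the test, and their summed level was 153 to 225 CPM with Lupron plus anti-CSF1, 133 to 288 CPM with anti-CSF1, 951 to 1261 CPM with Lupron and 439 to 1317 CPM with IgG, with none of the 10 at 0 in any tumour. Csf1r, the receptor of CSF1, was at −2.38 ± 0.31 (edgeR adjusted p = 0.00798). The 7 class II genes were also called without IgG replicate 3, and Ciita was at −1.96 ± 0.21, H2-DMb1 at −2.67 ± 0.21 and Csf1r at −2.54 ± 0.25.

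**Figure D2:**
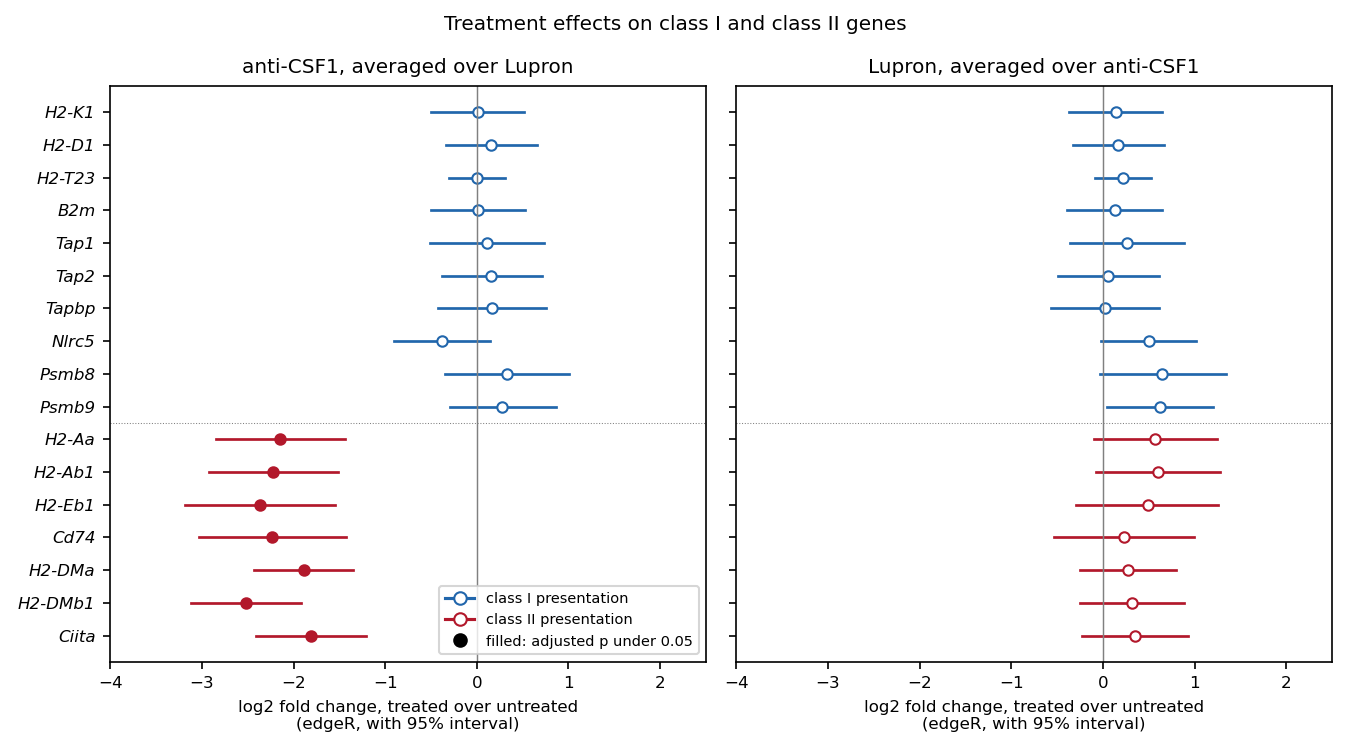
Log2 fold change by edgeR (x axes, with 95% intervals) of the 10 class I presentation genes (blue) and 7 class II presentation genes (red) for anti-CSF1 averaged over Lupron (left) and for Lupron averaged over anti-CSF1 (right). Filled points passed at an adjusted p under 0.05. With the antibody the class I genes lay between −0.38 and 0.33, and the 7 class II genes between −2.52 (H2-DMb1) and −1.81 (Ciita).

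H2-K1 of class I was set against H2-Ab1 of class II as a ratio of counts within each tumour. That test was chosen with the fall of class II genes known, so its p-value describes a separation already seen. H2-Ab1 was already called as lower and H2-K1 was not called. The ratio therefore adds no independent evidence and does not test the classes as a whole. The log2 ratio of H2-K1 to H2-Ab1 was 3.67, 3.63 and 3.32 in tumours with Lupron plus anti-CSF1 and 3.51, 4.16 and 4.00 with anti-CSF1. It was 1.36, 0.64 and 1.27 with Lupron and 1.85, 1.44 and 2.24 with IgG. All 6 tumours with the antibody lay above all 6 without it. The means were 3.72 ± 0.31 with and 1.47 ± 0.55 without the antibody (SD, n = 6 each; exact permutation test within Lupron strata, two-sided, p = 0.00500, adjusted p = 0.0100 over 4 tests), a 4.76-fold difference. The smallest p that this design can give is 0.00500. Within the antibody strata the ratio was 2.31 ± 1.37 with and 2.87 ± 1.17 without Lupron, a difference of −0.55 (exact permutation p = 0.0250, adjusted p = 0.0333). That call was lost without Lupron plus anti-CSF1 replicate 3 (−0.50), anti-CSF1 replicate 2 (−0.49) or 3 (−0.52), Lupron replicate 2 (−0.44) or 3 (−0.60), or IgG replicate 1 (−0.55) or 3 (−0.45), with adjusted p from 0.0533 to 0.0733, and in a permutation without strata (adjusted p = 0.632).

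A ratio of the transactivators, also chosen with the fall of Ciita known, separated the tumours in the same way. Ciita was already called as lower and Nlrc5 was not called, so this ratio adds no independent evidence. The log2 ratio of Nlrc5 to Ciita was 1.70, 2.66 and 2.16 in tumours with Lupron plus anti-CSF1, 2.07, 3.12 and 1.88 with anti-CSF1, 0.84, 1.03 and 1.23 with Lupron and 0.88, 0.27 and 0.68 with IgG. Again no tumour with the antibody overlapped one without. The means were 2.27 ± 0.53 with and 0.82 ± 0.33 without the antibody (SD, n = 6 each; exact permutation p = 0.00500, adjusted p = 0.0100), a 2.72-fold difference. Lupron gave a difference of 0.12 (exact permutation adjusted p = 0.695).

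**Figure D3:**
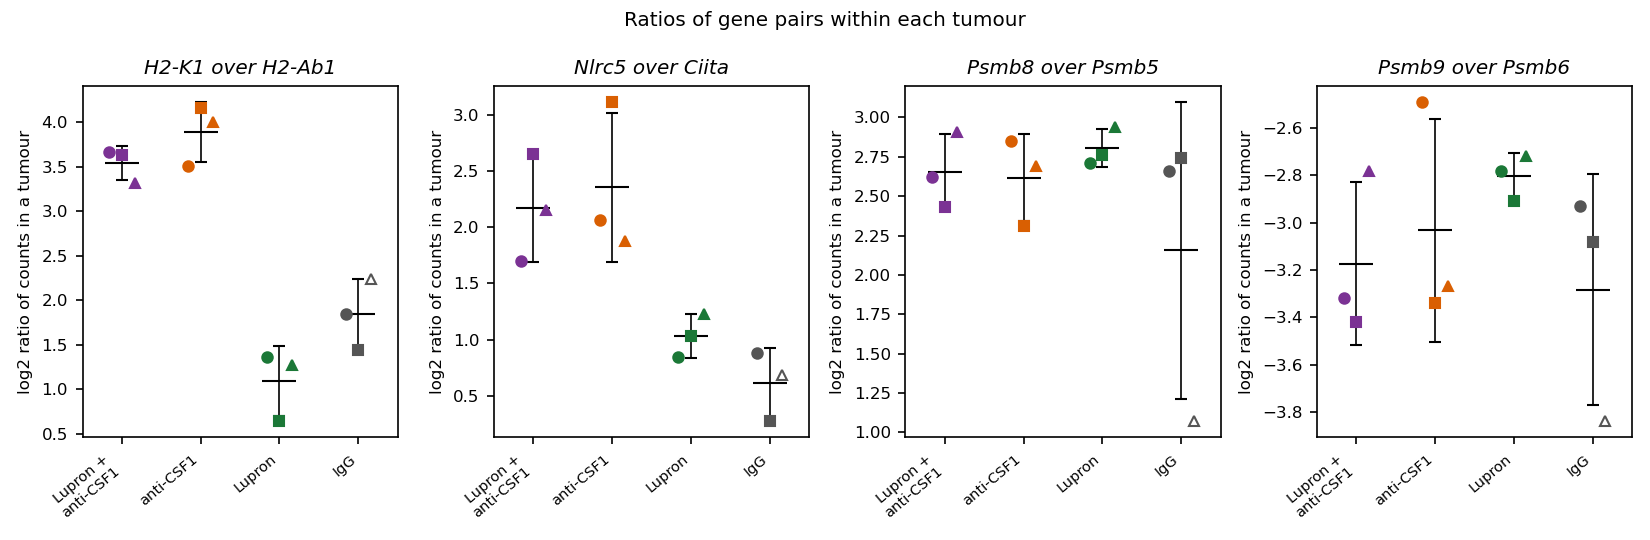
Log2 ratio of the counts of a pair of genes within each tumour (y axes) by treatment group (x axes), with tumours as points, the mean and SD of 3 tumours as bars and IgG replicate 3 as the open triangle. The ratios of H2-K1 to H2-Ab1 and of Nlrc5 to Ciita separate tumours with and without anti-CSF1, and the ratios of Psmb8 to Psmb5 and of Psmb9 to Psmb6 do not.

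Psmb8 and Psmb9 were also set against Psmb5 and Psmb6, the standard catalytic subunits that they replace, as a measure of the exchange of subunits at the RNA level. The log2 ratio of Psmb8 to Psmb5 was 2.63 ± 0.23 in tumours with and 2.48 ± 0.70 in tumours without the antibody (SD, n = 6 each), and 2.73 ± 0.19 with and 2.39 ± 0.67 without Lupron. IgG replicate 3 had 1.07, and the other 11 tumours lay between 2.31 and 2.94. The ratio of Psmb9 to Psmb6 was −3.10 ± 0.38 with and −3.04 ± 0.41 without the antibody, and −2.99 ± 0.30 with and −3.16 ± 0.45 without Lupron. In the exact permutation test the adjusted p was 0.840 for all 4 comparisons. Psmb5 and Psmb6 themselves had Lupron effects against IgG of 0.73 ± 0.27 and 0.74 ± 0.32 (edgeR adjusted p = 0.284 and 0.291), and of 0.55 ± 0.26 and 0.51 ± 0.30 without IgG replicate 3.

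Heavy chain, loading and proteasome genes outside the 10, taken by list, left no calls with the antibody averaged over Lupron. In that comparison 282 of 15082 genes (1.87%) were called, so counts of 0 in lists this short do not set them apart from all genes. With the antibody averaged over Lupron, 0 of 11 other heavy chain genes tested, 0 of 5 loading and chaperone genes, 0 of 3 immunoproteasome partners and activator genes and 0 of 16 genes of the standard proteasome (with its activator Psme3 and assembly factor Pomp) passed edgeR's test. The heavy chain list held 17 genes, of which 11 had enough counts to be tested. Fcgrt, the neonatal Fc receptor, which is a class I relative, was at −0.73 ± 0.19 (edgeR adjusted p = 0.0805). H2-T10, a nonclassical heavy chain, was at 0.54 ± 0.39, Calr, the loading chaperone calreticulin, at 0.36 ± 0.22, and Psmb10, the third immunoproteasome subunit, at 0.23 ± 0.27. These 4 were, without IgG replicate 3, at −0.64 ± 0.18, 0.32 ± 0.27, 0.24 ± 0.19 and 0.028 ± 0.14. The standard proteasome had 16 of 16 positive estimates with a median of 0.42, where all genes had 0.021 and 52.2% positive; Psmb4 (0.47 ± 0.17) and Psmb2 (0.40 ± 0.15) had the smallest p in it (edgeR adjusted p = 0.179 and 0.182). Without IgG replicate 3 that median was 0.31, again with 16 of 16 positive. Against IgG the same list had 16 of 16 positive with anti-CSF1, 15 of 16 with Lupron and 16 of 16 with both. The medians were 0.63, 0.73 and 0.86, and 0.44, 0.50 and 0.64 without IgG replicate 3.

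Regulators of class I genes gave 0 of 12 called with the antibody, and interferon ligands, receptors and their signalling genes 0 of 9. Of all genes 1.87% were called there. Rfx5, a factor that binds the promoters of both classes, was at −0.41 ± 0.13 (edgeR adjusted p = 0.147), and Irf1 at 0.30 ± 0.28. Ifngr2, a chain of the interferon gamma receptor, was at −0.37 ± 0.095 (edgeR adjusted p = 0.0857) and Ifng at −0.17 ± 0.57. Leaving out IgG replicate 3 put Rfx5 at −0.39 ± 0.13, Irf1 at 0.099 ± 0.14, Ifngr2 at −0.37 ± 0.099 and Ifng at −0.35 ± 0.60. Of 24 interferon-stimulated genes, 0 were called in either averaged effect, where 1.87% of all genes were called with the antibody and 0% with Lupron. With Lupron averaged over the antibody, 24 of 24 had a positive estimate with a median of 0.30, and without IgG replicate 3, 18 of 24 with a median of 0.10. Iigp1, an interferon-induced GTPase, had the smallest p among them (0.74 ± 0.24, edgeR adjusted p = 0.525; 0.60 ± 0.19 without IgG replicate 3).

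Receptors that read class I molecules gave 1 call of 8 with the antibody, where 1.87% of all genes were called. Lilrb3, listed in mouse as Pirb, is an inhibitory receptor of myeloid cells and B cells that binds class I. It fell to 9.86, 9.23 and 7.92 CPM with Lupron plus anti-CSF1 and 9.49, 7.77 and 6.54 CPM with anti-CSF1, against 21.9, 35.2 and 27.3 CPM with Lupron and 23.9, 51.3 and 20.3 CPM with IgG. The log2 fold change was −1.82 ± 0.25 (edgeR adjusted p = 0.00798), and no tumour with the antibody overlapped one without. Cd8a, the coreceptor of T cells for class I, was at −0.75 ± 0.57 (edgeR adjusted p = 0.471), and Klrd1, the CD94 chain that reads Qa-1, at 0.94 ± 0.51 (edgeR adjusted p = 0.333). With IgG replicate 3 left out, edgeR called 2 of the 8, Lilrb3 at −1.94 ± 0.22 and Lilrb4, another inhibitory receptor of myeloid cells, at −1.59 ± 0.20 (−1.35 ± 0.38 with all 12 tumours, edgeR adjusted p = 0.111), while Cd8a stayed negative (edgeR adjusted p = 0.310) and Klrd1 was at 0.71 ± 0.43. The summed T cell markers were 14.7 to 36.4 CPM with Lupron plus anti-CSF1, 16.8 to 40.5 CPM with anti-CSF1, 46.8 to 72.7 CPM with Lupron and 10.4 to 43.0 CPM with IgG.

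The 10 genes did not vary as 1 block. Over the 12 tumours the 45 pairs had a median Pearson r of 0.73 (log2 of CPM + 1), and of 0.37 over the 11 tumours without IgG replicate 3. Without that tumour H2-K1 and H2-D1 stayed at 0.95, Psmb8 and Psmb9 at 0.94, Tap2 and Tapbp at 0.93 and Tap1 and Tap2 at 0.88. Tapbp stood at −0.48 with Psmb8, −0.47 with Psmb9 and −0.30 with Nlrc5. Tap1 and Psmb9, which share a promoter region, had an r of 0.73 with and 0.093 without IgG replicate 3. These pairs share libraries and scaling factors and are given as a description.

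Relations of Nlrc5 with each of the other class I genes, and of Tap1 with Psmb9, made up 10 relations, with permutation p-values adjusted over the 10. Tap1 and Psmb9 had a permutation adjusted p of 0.0595. Nlrc5 and H2-T23 had a Pearson r of 0.87 (permutation adjusted p = 0.00200) and a Spearman rho of 0.78 (permutation adjusted p = 0.0459) over the 12 tumours. The r was 0.73 without the 2 tumours farthest from the median of Nlrc5, IgG replicate 3 and anti-CSF1 replicate 3, and 0.80 without IgG replicate 3 alone. Nlrc5 and Psmb9 had an r of 0.76 (permutation adjusted p = 0.00795) and a rho of 0.69 (permutation adjusted p = 0.0692), with 0.54 left without the same 2 tumours. Nlrc5 and Psmb8 had an r of 0.69 (permutation adjusted p = 0.0119) and a rho of 0.67 (permutation adjusted p = 0.0692), with 0.50 left. For H2-K1, H2-D1, B2m and Tap1 the r lay between 0.58 and 0.62 (permutation adjusted p = 0.0595 for each), and between 0.24 and 0.36 without IgG replicate 3, and for Tap2 and Tapbp it was 0.26 and 0.060. No batch of library preparation or sequencing is named in the sources used here, so no value within batches could be given. As deviations from the 4 group means, with tumours permuted within groups, Nlrc5 had an r of 0.90 with H2-T23 (exact permutation adjusted p = 0.0463 over the 10 relations), 0.90 with Psmb9 (adjusted p = 0.0592) and 0.81 with Psmb8 (adjusted p = 0.0579). Without IgG replicate 3 these were 0.81, 0.86 and 0.77 (exact permutation adjusted p = 0.177 for each), so the call for H2-T23 within groups was lost. This check within groups was chosen after seeing the data.

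Genes most like the 10 were ranked by the correlation of each of 10856 genes of at least 5 CPM with the mean z-score of the 10 over the 12 tumours, a description that IgG replicate 3 bears on. The 8 highest were Cxcl9, an interferon gamma-induced chemokine for T cells (r = 0.96), the heavy chain gene H2-Q4 (0.96), the kinase gene Vrk1 (0.95), the interferon-induced factor Batf2 (0.95), Arhgap19 (0.95), Irf1 (0.94), Psmb10 (0.94) and the histone chaperone gene Asf1b (0.93). Without IgG replicate 3, Cxcl9 (0.87) and H2-Q4 (0.84) again ranked 1 and 2, Arhgap19 (0.83) and Batf2 (0.81) 3 and 4, Irf1 (0.74) 11, Psmb10 (0.73) 13 and Asf1b (0.66) 46. Cxcl9 had 76.9, 111 and 148 CPM with Lupron plus anti-CSF1, 156, 71.0 and 74.7 CPM with anti-CSF1, 168, 144 and 213 CPM with Lupron and 81.3, 136 and 10.4 CPM with IgG. Like the 10 genes it had no call, at −0.12 ± 0.47 for the antibody and 0.68 ± 0.47 for Lupron averaged over the other treatment (edgeR adjusted p = 0.902 and 0.577), and at −0.38 ± 0.26 and 0.42 ± 0.26 without IgG replicate 3.

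**Figure D4:**
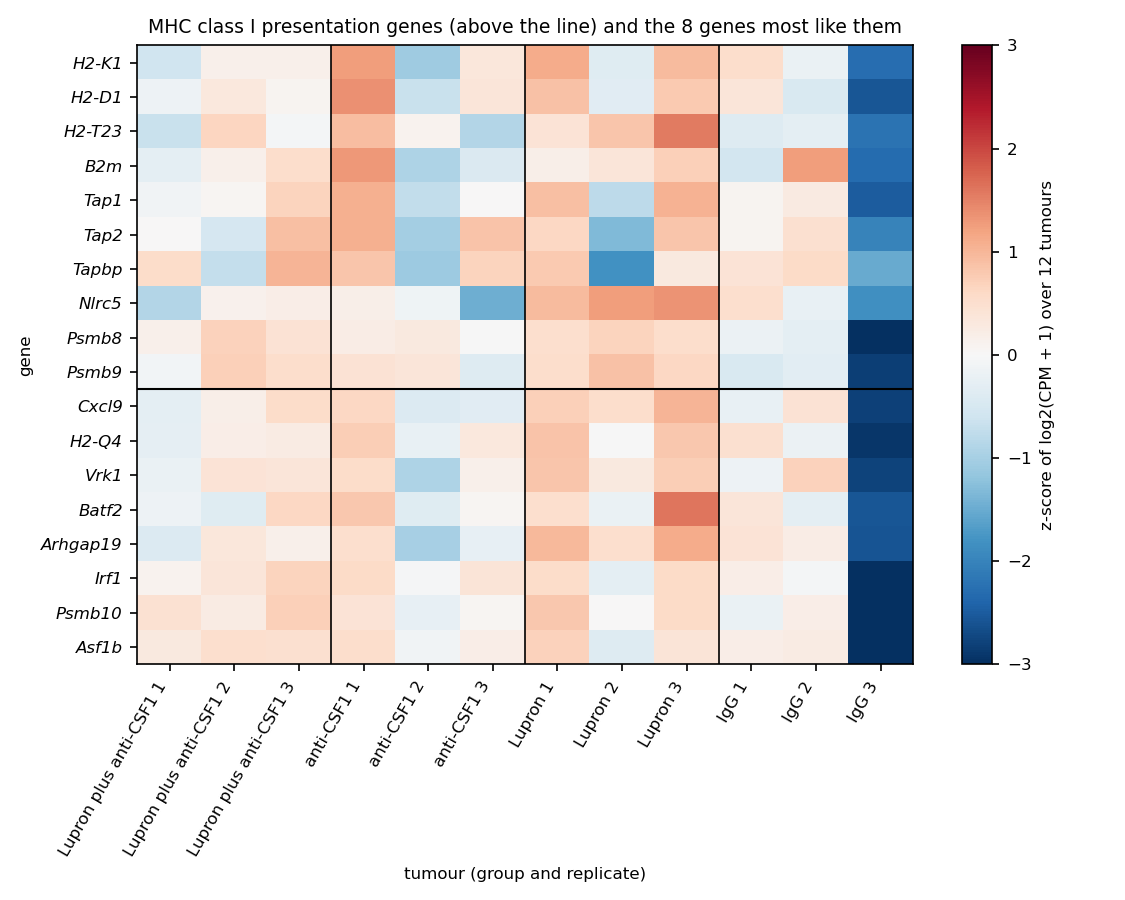
Each gene's z-score of log2(CPM + 1) over the 12 tumours (colour, blue low, red high), with genes as rows and tumours as columns in the order Lupron plus anti-CSF1, anti-CSF1, Lupron and IgG. The 10 class I presentation genes stand above the line and the 8 genes most like them below it. The column of IgG replicate 3 is the lowest for 9 of the 10 genes, and Tapbp is lowest in Lupron replicate 2.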

How the data were processed

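Per the labels' protocols, tumour RNA came from RNeasy Plus columns (the kit size differs between labels and series text) and went into NuGen Ovation libraries. Per the submitters' processing notes, bcl2fastq 2.20.0.422, cutadapt 1.8.1 and HTSeq 0.6.1 were used on genome build mm10. The sources used here give no aligner, annotation or strand setting. The authors deposited whole-number counts per gene symbol, with no normalization.

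Tests on these counts used edgeR 4.0.16 in R 4.3.3: the filter on low counts for the 4 groups, TMM scaling, 1 mean per group over 12 libraries, the robust quasi-likelihood test (two-sided) and Benjamini-Hochberg adjustment over 15082 genes. A gene was called at an adjusted p under 0.05. The step was tested on simulated data. A permutation test of 3 tumours against 3 cannot give a p under 0.1. Of 8 comparisons, the averaged effects set 6 libraries against 6. CPM use TMM-scaled totals, and exon lengths come from GENCODE for GRCm38. Ratios within a tumour used an exact permutation test over 400 arrangements, and correlations 100000 permutations of log2(CPM + 1).

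The 10 genes, the 23 gene lists (201 symbols, 4 matched by an older name and 1 without a match) and the tests were chosen with earlier results of these data known. All 10 genes were named, with up to 4 genes of smallest p per list, a few fixed regulators and class II genes, Csf1r, and the 8 genes most like the 10. Alternatives were DESeq2 1.42.0 (Wald test and size factors), no filter (at least 1 count), a stricter filter (1 CPM in 3 libraries), the replicate number as a block (with limma 3.58.1 for the ratios), permutation without strata and leaving out each library. The labels do not say what a replicate number shares, and the main fit did not pair tumours by it.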

Additional observations from a re-analysis of the deposited data

Results flagged for a closer look

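Psmb8, the immunoproteasome subunit, had 1 tumour far from the others among the 6 without Lupron. IgG replicate 3 had 39.7 CPM, the next lowest had 184 CPM and the highest 256 CPM. The gap to the nearest tumour was 0.668 of the whole range, above Dixon's 95% critical value for 6 samples. In all, 40 groups of 6 tumours were examined, 4 for each of the 10 genes, and chance flags about 1 in 20. The same tumour was highest for smooth muscle markers (11542 CPM summed) and lowest for proliferation markers (78.5 CPM summed), and the part of these in its Psmb8 level was not tested.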

How the results depend on the processing

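No setting called any of the 10 genes in any of the 8 comparisons, over the 12 fits without 1 library and 5 other settings; the lowest adjusted p among them was 0.0761, for Nlrc5 in Lupron against IgG without IgG replicate 1. The count over all genes did depend on the setting. DESeq2's Wald test called 1425 genes for the antibody averaged over Lupron, 12 for Lupron averaged over the antibody, 188 for the interaction, 1841 for anti-CSF1 against IgG, 404 for Lupron against IgG, 2094 for Lupron plus anti-CSF1 against IgG, 236 for it against Lupron and 6 for it against anti-CSF1. DESeq2's size factors or the stricter filter gave 2, 3 and 5 genes for anti-CSF1 against IgG, the combination against IgG and the combination against Lupron, and no filter gave 3 and 2 for the last 2. Same-numbered tumours of different groups had correlations of their deviations from −0.304 to 0.513, and those numbered 2 from 0.00513 to 0.513. The labels do not say what a replicate number shares, so replicate numbers were not taken as pairs in the main fit. With the replicate block, 151 genes were called for the antibody averaged over Lupron, 0 for anti-CSF1 against IgG and 0 for the combination against IgG, Tapbp turned to −0.023 for Lupron averaged over the antibody, and 0 of the 10 genes were called. For Lupron averaged over the antibody, the block gave 3 of the 10 genes at an unadjusted p under 0.05, against 1 in the main fit. The lowest edgeR adjusted p of the 10 was then 0.261 (Psmb9), and the share of all genes was not counted. Estimates near 0 changed sign with the scaling, tool or filter: H2-T23 for the averaged antibody effect (−0.013 with DESeq2's size factors or test, −0.0086 with the stricter filter), Tapbp for Lupron against IgG (0.0018 without a filter), Tap2 for the combination against Lupron (−0.00091 with the stricter filter) and Tap1 for the combination against anti-CSF1 (−0.00065 with the size factors, −0.00063 with DESeq2 and −0.0013 without a filter). The cause was not tested.

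Leaving out 1 library moved the count over all genes as follows: 65 to 1577 for the antibody averaged over Lupron, 0 to 2 for Lupron averaged over the antibody, 0 to 5 for the interaction, 0 to 2611 for anti-CSF1 against IgG, 0 to 653 for Lupron against IgG, 0 to 2213 for Lupron plus anti-CSF1 against IgG and 0 to 210 for Lupron plus anti-CSF1 against Lupron. The highest counts came without IgG replicate 1, except for the combination against Lupron (without IgG replicate 3), and the 65 without anti-CSF1 replicate 3. Log2 fold changes that changed sign had these ranges. For the antibody averaged over Lupron they were H2-K1 −0.11 to 0.14, H2-T23 −0.064 to 0.065, B2m −0.10 to 0.19 and Tap1 −0.063 to 0.24. For Lupron averaged over the antibody they were Tap2 −0.074 to 0.17 and Tapbp −0.10 to 0.16. For the interaction they were B2m −0.57 to 0.027 and Tapbp −0.18 to 0.32. For anti-CSF1 against IgG they were B2m −0.12 to 0.48, Tapbp −0.11 to 0.38 and Nlrc5 −0.31 to 0.30. For Lupron against IgG they were B2m −0.0046 to 0.59, Tap2 −0.046 to 0.43 and Tapbp −0.26 to 0.24. For Lupron plus anti-CSF1 against IgG they were H2-K1 −0.10 to 0.40, B2m −0.095 to 0.49, Tap2 −0.041 to 0.44, Tapbp −0.060 to 0.39 and Nlrc5 −0.18 to 0.45. For Lupron plus anti-CSF1 against Lupron they were Tap1 −0.38 to 0.026, Tap2 −0.21 to 0.18, Tapbp −0.054 to 0.45 and Psmb8 −0.23 to 0.0069. For Lupron plus anti-CSF1 against anti-CSF1 they were H2-K1 −0.35 to 0.082, H2-D1 −0.36 to 0.085, H2-T23 −0.13 to 0.094, B2m −0.12 to 0.27, Tap1 −0.20 to 0.30, Tap2 −0.34 to 0.063, Tapbp −0.18 to 0.25 and Nlrc5 −0.092 to 0.33. Among the ratios, Psmb8 over Psmb5 (−0.12 to 0.30) and Psmb9 over Psmb6 (−0.20 to 0.029) changed sign for the antibody, and Nlrc5 over Ciita (−0.0019 to 0.31) for Lupron. H2-K1 over H2-Ab1 for Lupron ran from −0.65 to −0.44 and stood at −0.55 without strata, where it did not pass. The antibody's effects on H2-K1 over H2-Ab1 and on Nlrc5 over Ciita, both chosen with the fall of class II genes known, passed in every one of these fits.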
